A study of Mus musculus with 12 samples.

Results

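The genes described here build and run motile cilia, or mark the ependymal cells that carry such cilia along the brain ventricles. They were taken from the count table by name: axonemal dynein heavy chains (Dnah) and intermediate chains (Dnaic), subunits of the nexin-dynein regulatory complex (Drc), cilia and flagella associated proteins (Cfap), radial spoke proteins (Rsph) and tektins (Tekt), each symbol followed by a digit, and Foxj1, Ccdc153, Tmem212, Pifo, Ak7, Dynlrb2 and Rarres2. The rule found 72 of the 53379 genes in the table, and 57 of them had a mean of at least 0.5 CPM (read counts scaled to the total of the library) over the 12 libraries. Each of the 12 libraries came from the brain of wild-type mice (C57BL/6J), from tissue which the submitters describe as cortex, taken 6 months after the injury or sham procedure. The 4 groups of 3 libraries were fish oil injured, fish oil sham, purified injured and purified sham. Injured mice had received repeated closed-head injuries below the mild grade, and sham mice had not. The fish oil mice had a fish oil supplement within a high-fat diet given in cycles, and the purified mice ate a purified control diet throughout. Fat content and fish oil cannot be told apart. The labels give no age or sex, and do not say whether a library held 1 mouse or a pool. The p-values therefore measure only the spread between these libraries.

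A motile cilium beats because dynein arms, with heavy chains as motors and intermediate chains as scaffolds, slide neighbouring microtubule doublets against each other. Radial spokes and the nexin-dynein regulatory complex turn that sliding into bending, tektins and several Cfap proteins lie inside the doublet wall, and other Cfap proteins belong to the central apparatus or help to assemble the arms. In the brain, multiciliated ependymal cells line the ventricles and move cerebrospinal fluid, and choroid plexus epithelium, which secretes that fluid, also carries cilia. Foxj1 and the RFX factors are transcription factors of the ciliary programme, and RFX factors bind a promoter motif called the X-box.

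Promoters are shown first because an X-box is a feature that the naming rule did not use. Of the 57 genes, 48 had a window in the RefSeq promoter table (GRCm38.p6, 250 bases before to 50 bases after the gene start), giving 54 windows. The X-box was searched as GTTNCC followed after 0 to 3 bases by NGNAAC on both strands, and 12 of the 54 windows held it (22.2%, 11 genes), against 1.86% of all 32851 windows of the table. The shorter motif GTTGCC, a single arm of the X-box, was in 23 windows (42.6%), against 12.5% of all windows, and 7 windows held both motifs, which can overlap. The forkhead core TGTTTAC was in 3 windows (5.56%), against 3.65% of all windows. The next lines give 40 bases around the X-box, in capitals and 5′ to 3′ on the strand of the gene, for 1 or 2 genes of each role that had one. They are Dynlrb2 on the plus strand (chr8:116504950-116504989), Dnah9 on the minus strand (chr11:66168608-66168647), Dnaic1 on the plus strand (chr4:41569761-41569800), Dnaic2 on the plus strand (chr11:114727372-114727411), Drc3 on the plus strand (chr11:60353364-60353403), Rsph3b on the minus strand (chr17:6948322-6948361), Tekt2 on the minus strand (chr4:126325692-126325731) and Cfap44 on the plus strand (chr16:44394759-44394798).
Dynlrb2: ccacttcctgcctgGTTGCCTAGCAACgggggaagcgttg
Dnah9: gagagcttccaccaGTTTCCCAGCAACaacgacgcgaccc
Dnaic1: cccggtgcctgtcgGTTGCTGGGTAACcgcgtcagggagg
Dnaic2: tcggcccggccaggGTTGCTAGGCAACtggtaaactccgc
Drc3: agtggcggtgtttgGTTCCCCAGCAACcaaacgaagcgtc
Rsph3b: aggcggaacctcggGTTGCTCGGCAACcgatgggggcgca
Tekt2: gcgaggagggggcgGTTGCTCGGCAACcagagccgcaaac
Cfap44: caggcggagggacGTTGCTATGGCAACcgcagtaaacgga

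The other genes with an X-box were Cfap298, Cfap45 and Cfap61. Ccdc153 and Ak7, which were highest in the same library, had no X-box in their windows. The window of Ccdc153 (plus strand, chr9:44240427-44240726) held GTTGCC and that of Ak7 (plus strand, chr12:105705732-105706031) held a forkhead core, both in capitals below.
Ccdc153: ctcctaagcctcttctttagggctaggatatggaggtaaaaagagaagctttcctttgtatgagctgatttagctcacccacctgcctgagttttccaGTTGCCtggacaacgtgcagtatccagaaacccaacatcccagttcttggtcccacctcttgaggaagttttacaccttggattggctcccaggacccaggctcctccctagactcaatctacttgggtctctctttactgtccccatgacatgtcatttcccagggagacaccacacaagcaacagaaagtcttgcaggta
Ak7: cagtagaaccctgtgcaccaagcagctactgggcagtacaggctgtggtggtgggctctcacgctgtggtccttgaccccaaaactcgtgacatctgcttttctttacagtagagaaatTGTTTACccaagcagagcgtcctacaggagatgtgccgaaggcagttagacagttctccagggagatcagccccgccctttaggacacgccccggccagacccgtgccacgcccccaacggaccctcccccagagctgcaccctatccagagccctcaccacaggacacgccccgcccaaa
A match is only a run of letters, and no binding was measured.

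**Figure D1:**
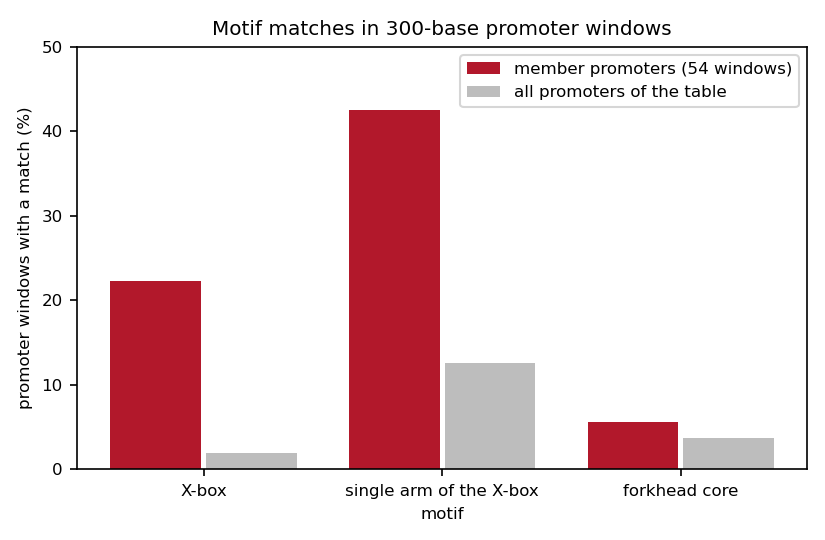
Share of 300-base RefSeq promoter windows with a match to each motif (%), for the 54 windows of the cilia genes in red and all 32851 windows of the table in grey. The X-box was in 22.2% of the cilia gene windows and 1.86% of all windows.

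Totals were 46362158 to 70754854 counts per library. The summed level of 9 cortical neuron genes was 1210 to 1697 CPM in fish oil injured, 929 to 1694 CPM in fish oil sham, 1067 to 1860 CPM in purified injured and 1451 to 1590 CPM in purified sham mice. Some libraries also carried much transcript of other regions. In purified injured replicate 3, 4 olfactory bulb genes summed to 694 CPM, against 2.39 to 27.1 CPM elsewhere. In fish oil sham replicate 2, 8 striatal genes summed to 2119 CPM and in purified sham replicate 4 to 852 CPM, against 161 to 456 CPM in the other 10. Choroid plexus transcripts also differed by library: 15 genes of its epithelium summed to 253, 2729 and 2525 CPM in fish oil injured, 56.6, 70.7 and 44.4 CPM in fish oil sham, 26.2, 58.2 and 53.4 CPM in purified injured, and 35.5, 509 and 36.0 CPM in purified sham mice. None of the 15 was at 0 in all 12 libraries. In such bulk tissue, fewer cells of a type and less RNA per cell cannot be told apart. Values by library are given throughout in the order of replicates 2, 3 and 4.

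The genes did not form 1 level class. Mean levels ran from 0.604 CPM (Cfap58) to 72.5 CPM (Cfap36), and per kilobase of exon from 0.0275 (Dnah8) to 26.4 CPM (Cfap36). In 10 genes the highest library was less than 2-fold above the lowest, and in 20 it was more than 4-fold above. Just below the minimum lay Pifo with 0.489, Tmem212 with 0.437 and Dnah17 with 0.333 CPM, and just above it Cfap58 with 0.604, Cfap161 with 0.613 and Dnah3 with 0.668 CPM. The other genes below the minimum were Cfap53, Cfap73, Cfap77, Cfap157, Cfap221, Cfap299, Cfap97d1, Rsph6a, Rsph14, Tekt3, Tekt4 and the antisense RNA Dnah2os. Of all 15 below it, 10 still had enough counts to be tested.

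**Figure D2:**
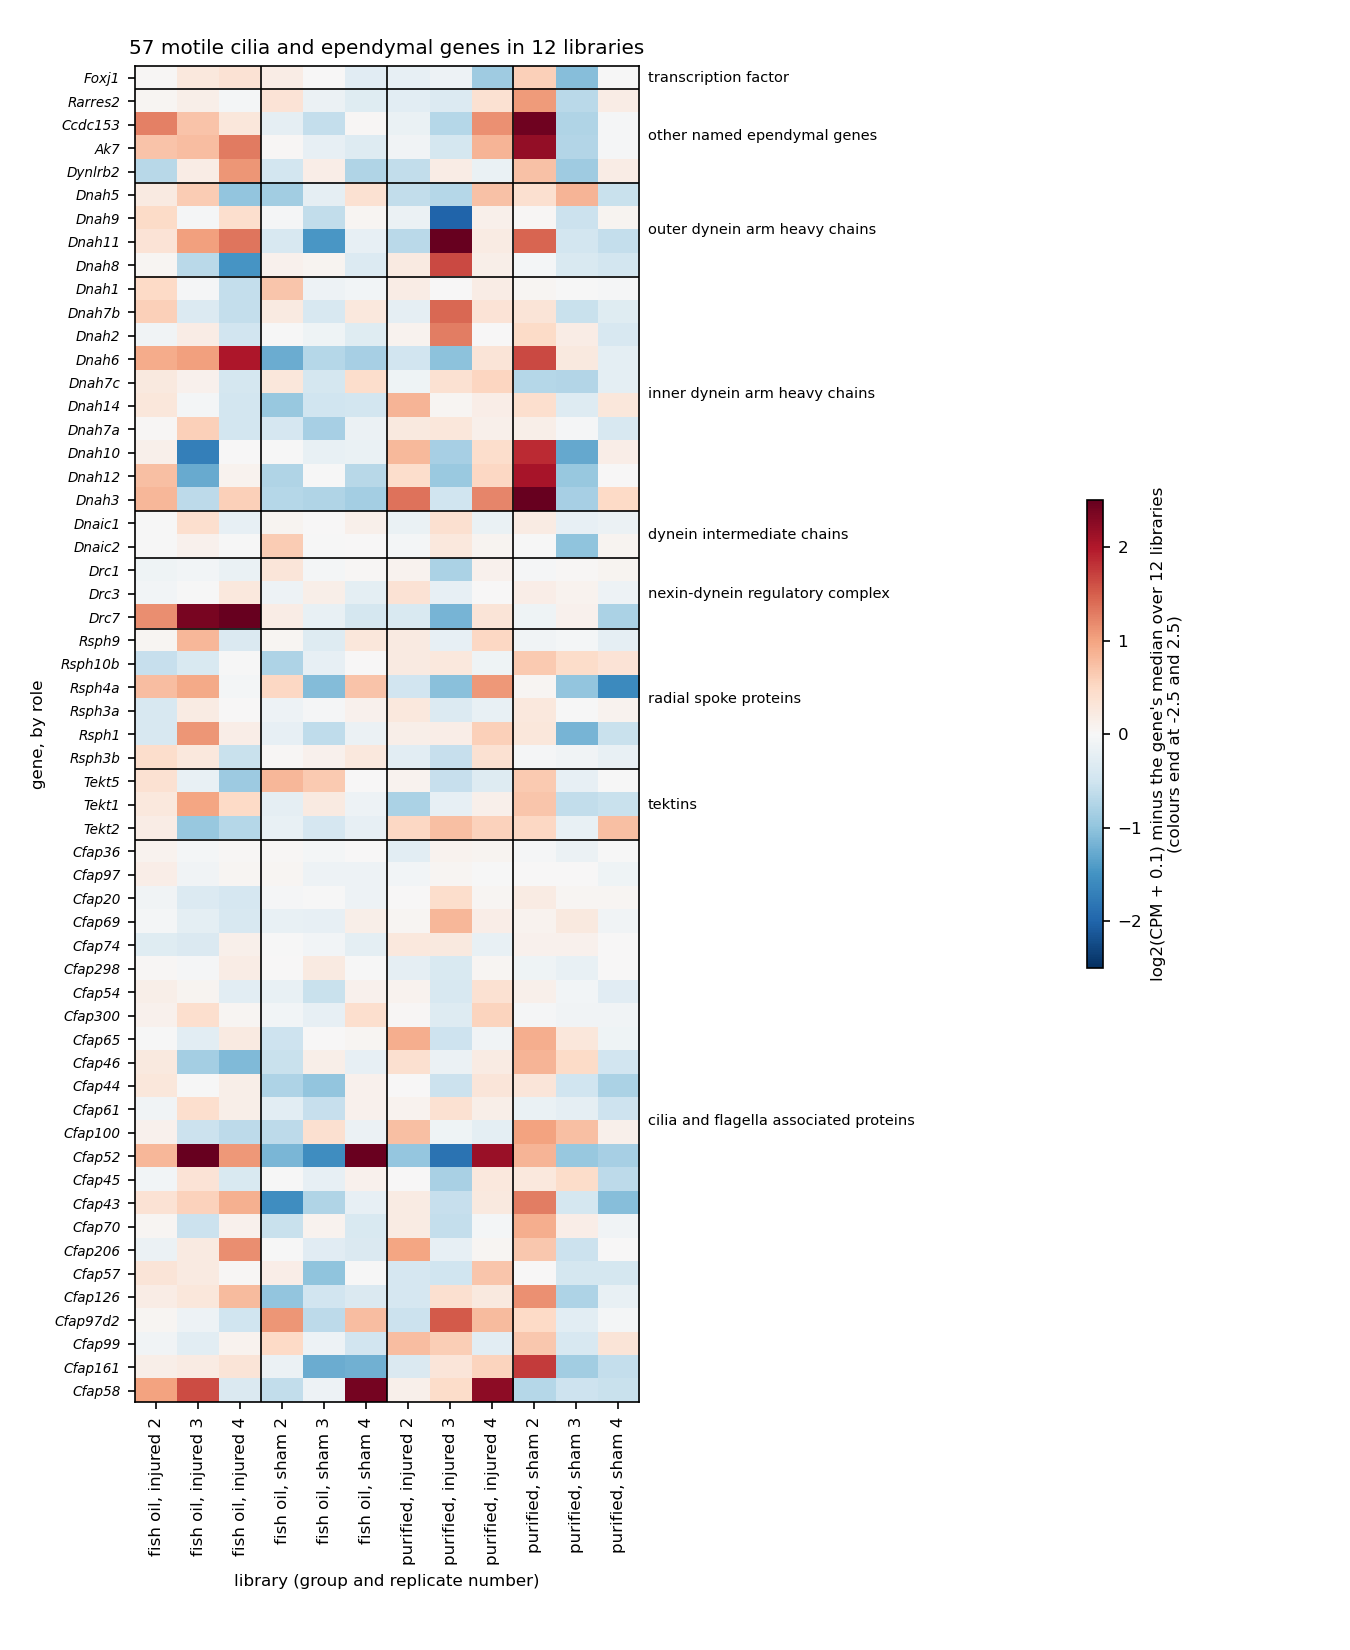
Level of each of the 57 genes (rows, grouped by role) in each of the 12 libraries (columns), as log2(CPM + 0.1) minus the median of the gene over the libraries, with red above and blue below that median. The 15 genes highest in purified sham replicate 2 belong to several roles, and 8 genes were highest in purified injured replicate 3.

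The ependymal genes named singly were low, and most were highest in 1 sham library. Foxj1, the transcription factor that switches on motile cilia genes (ENSMUSG00000034227.7, GRCm38 chr11:116330704-116335399, minus strand), had 1.91, 2.25 and 2.44 CPM in fish oil injured, against 2.13, 1.88 and 1.53 CPM in fish oil sham mice, and 1.62, 1.7 and 0.966 CPM in purified injured, against 2.9, 0.843 and 1.87 CPM in purified sham mice. Its highest library was purified sham replicate 2 and its lowest purified sham replicate 3, so the sham libraries of the purified diet bracketed all others. Ccdc153, an ependymal marker (ENSMUSG00000070306.3, GRCm38 chr9:44240676-44247306, plus strand), had 1.99, 1.34 and 0.96 CPM in fish oil injured, against 0.653, 0.481 and 0.798 CPM in fish oil sham mice, and 0.68, 0.431 and 1.83 CPM in purified injured, against 4.62, 0.421 and 0.753 CPM in purified sham mice. Ak7, an adenylate kinase of the axoneme (ENSMUSG00000041323.6, GRCm38 chr12:105705976-105782447, plus strand), had 1.27, 1.32 and 1.94 CPM in fish oil injured, against 0.749, 0.622 and 0.57 CPM in fish oil sham mice, and 0.68, 0.518 and 1.41 CPM in purified injured, against 3.7, 0.4 and 0.717 CPM in purified sham mice. Both were highest in purified sham replicate 2, by 5.96-fold over the gene's median library for Ccdc153 and 5.05-fold for Ak7, while the other purified sham libraries were among the lower ones. Tmem212, an ependymal membrane protein gene below the minimum, had 0.716, 0 and 0.362 CPM in fish oil injured, against 0.154, 0.0848 and 0 CPM in fish oil sham mice, and 0.26, 0.129 and 0.181 CPM in purified injured, against 3.18, 0 and 0.179 CPM in purified sham mice. It was at 0 in 3 libraries, each from another group, and in purified sham replicate 2 it stood far above every other library. Pifo, a ciliary gene also below the minimum, had 0.644, 0.542 and 1.5 CPM in fish oil injured, against 0.23, 0.141 and 0.114 CPM in fish oil sham mice, and 0.16, 1.12 and 0.362 CPM in purified injured, against 0.804, 0.169 and 0.0717 CPM in purified sham mice. Pifo was highest in fish oil injured replicate 4, and the fish oil injured libraries lay above the fish oil sham ones without overlap. Dynlrb2, a roadblock dynein light chain of cilia, had 0.376, 0.779 and 1.56 CPM in fish oil injured, against 0.461, 0.763 and 0.358 CPM in fish oil sham mice, and 0.4, 0.776 and 0.584 CPM in purified injured, against 1.17, 0.316 and 0.771 CPM in purified sham mice, with overlap between all groups. Its paralogue Dynlrb1, which belongs to the cytoplasmic dynein used in all cells, had 83.7 CPM per kilobase of exon, against 1.25 CPM per kilobase for Dynlrb2. Rarres2, which encodes chemerin, had 2.93, 3.15 and 2.72 CPM in fish oil injured, against 3.61, 2.54 and 2.28 CPM in fish oil sham mice, and 2.32, 2.2 and 3.68 CPM in purified injured, against 6.04, 1.73 and 3.21 CPM in purified sham mice. It too was highest in purified sham replicate 2, and its exons overlap those of Lrrc61 on the opposite strand. Summed over the 7 genes named in the rule, the level was 9.84, 9.38 and 11.5 CPM in fish oil injured mice, against 7.98, 6.52 and 5.65 CPM in fish oil sham mice, and 6.12, 6.88 and 9.02 CPM in purified injured mice, against 22.4, 3.88 and 7.57 CPM in purified sham mice. The fish oil injured libraries did not overlap the fish oil sham libraries in this sum, and the purified groups overlapped. Among single genes, 2.32% had every fish oil injured library above every fish oil sham library. The difference in the sum was not tested.

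The outer dynein arm heavy chains did not all follow the same course, though Dnah11 and Dnah8 were both highest in purified injured replicate 3. Dnah5, a main outer arm motor, had 15.2, 20.3 and 6.5 CPM in fish oil injured, against 7.14, 11.2 and 17 CPM in fish oil sham mice, and 8.5, 7.92 and 21.6 CPM in purified injured, against 17.3, 23.5 and 8.79 CPM in purified sham mice. Dnah9, its partner in the outer arm, had 8.87, 6.25 and 8.57 CPM in fish oil injured, against 6.24, 4.14 and 6.61 CPM in fish oil sham mice, and 5.7, 1.51 and 6.92 CPM in purified injured, against 6.48, 4.34 and 6.64 CPM in purified sham mice. Dnah5 varied within every group and Dnah9 was low only in purified injured replicate 3. Dnah11, the partner of Dnah5 nearer the base of the cilium (ENSMUSG00000018581.15, GRCm38 chr12:117877982-118199043, minus strand), had 1.47, 2.44 and 3.04 CPM in fish oil injured, against 0.845, 0.353 and 0.977 CPM in fish oil sham mice, and 0.68, 51 and 1.33 CPM in purified injured, against 3.31, 0.801 and 0.717 CPM in purified sham mice. The 51.0 CPM of purified injured replicate 3 were 44.3-fold above the median library, and all other libraries lay between 0.353 and 3.31 CPM. Cdca7l, whose exons overlap those of Dnah11 on the opposite strand, had 9.99 CPM in the same library and 0.169 to 1.17 CPM in the others. Dnah8, known best as a sperm dynein, had 0.716, 0.389 and 0.181 CPM in fish oil injured, against 0.749, 0.721 and 0.521 CPM in fish oil sham mice, and 0.82, 2.37 and 0.765 CPM in purified injured, against 0.653, 0.506 and 0.466 CPM in purified sham mice. It was highest in the same library, and the fish oil injured libraries were all below the purified injured ones. That library is the one with olfactory bulb transcripts, and 9 neuroblast genes summed to 561 CPM in it, against 84.5 to 138 CPM elsewhere. Their part in the levels of Dnah11 and Dnah8 was not tested beyond leaving the library out.

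The heavy chains of the inner arms and related dyneins differed in which library was highest. Those with the highest means were Dnah1 and Dnah7b. Dnah1 had 14.9, 10.3 and 6.9 CPM in fish oil injured, against 16.9, 9.67 and 10.1 CPM in fish oil sham mice, and 12, 10.6 and 11.9 CPM in purified injured, against 10.8, 10.4 and 10.3 CPM in purified sham mice, with its highest value in fish oil sham replicate 2. Dnah7b had 10.4, 5.35 and 4.49 CPM in fish oil injured, against 8.0, 5.17 and 8.27 CPM in fish oil sham mice, and 5.86, 18.6 and 8.76 CPM in purified injured, against 8.62, 4.63 and 5.52 CPM in purified sham mice, with its highest value in purified injured replicate 3. Dnah2, another inner arm motor, was also highest in that library, with 9.79 CPM, against 2.82 to 5.52 CPM elsewhere. Dnah3, Dnah10 and Dnah12 had the same highest library as Ccdc153 and Ak7. Dnah3 had 0.751, 0.203 and 0.616 CPM in fish oil injured, against 0.192, 0.184 and 0.163 CPM in fish oil sham mice, and 1.12, 0.237 and 1.01 CPM in purified injured, against 2.8, 0.169 and 0.574 CPM in purified sham mice. Dnah12 had 1.59, 0.322 and 0.978 CPM in fish oil injured, against 0.499, 0.905 and 0.521 CPM in fish oil sham mice, and 1.26, 0.431 and 1.35 CPM in purified injured, against 4.08, 0.421 and 0.915 CPM in purified sham mice. Dnah10 had 1.22, 0.271 and 1.12 CPM in fish oil injured, against 1.09, 0.961 and 0.977 CPM in fish oil sham mice, and 2.02, 0.582 and 1.53 CPM in purified injured, against 4.29, 0.4 and 1.26 CPM in purified sham mice. In all 3 genes purified sham replicate 2 was the highest library, and the groups overlapped except that Dnah3 was higher in every fish oil injured than in every fish oil sham library. A different course was that of Dnah6, an inner arm motor (ENSMUSG00000052861.13, GRCm38 chr6:73017606-73221651, minus strand), with 3.97, 4.27 and 8.55 CPM in fish oil injured, against 0.806, 1.22 and 1.11 CPM in fish oil sham mice, and 1.44, 0.949 and 2.58 CPM in purified injured, against 6.63, 2.42 and 1.72 CPM in purified sham mice. Every fish oil injured library lay above every fish oil sham and every purified injured library. Every fish oil sham library lay below every purified sham library, and purified sham replicate 2 was second among the 12. Dnah7c, a close paralogue of Dnah7a and Dnah7b whose reads may be shared with them, had 3.49, 3.18 and 2.15 CPM in fish oil injured, against 3.59, 2.15 and 4.04 CPM in fish oil sham mice, and 2.72, 3.86 and 4.31 CPM in purified injured, against 1.76, 1.73 and 2.46 CPM in purified sham mice. Its purified injured libraries were all above its purified sham libraries.

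Of the intermediate chains of the outer arm, Dnaic1 was the more even, with its highest library 1.57-fold above its lowest, against 3.45-fold for Dnaic2. Dnaic1 had 3.29, 4.45 and 2.86 CPM in fish oil injured, against 3.46, 3.32 and 3.61 CPM in fish oil sham mice, and 2.92, 4.38 and 2.92 CPM in purified injured, against 3.85, 2.84 and 2.96 CPM in purified sham mice. Dnaic2 had 1.45, 1.59 and 1.45 CPM in fish oil injured, against 2.32, 1.44 and 1.47 CPM in fish oil sham mice, and 1.4, 1.77 and 1.53 CPM in purified injured, against 1.46, 0.674 and 1.54 CPM in purified sham mice. Neither separated any groups that were compared.

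Drc7 stood apart within the nexin-dynein regulatory complex. Drc1 had 14.2, 14.6 and 13.6 CPM in fish oil injured, against 18.8, 14.8 and 15.6 CPM in fish oil sham mice, and 16.3, 8.84 and 16.5 CPM in purified injured, against 15, 15.5 and 15.9 CPM in purified sham mice. Drc3 had 11.9, 12.5 and 15.1 CPM in fish oil injured, against 11.4, 14 and 10.6 CPM in fish oil sham mice, and 16.2, 10.9 and 12.6 CPM in purified injured, against 14.1, 13.3 and 11.4 CPM in purified sham mice. Drc1 had its lowest value in purified injured replicate 3 and Drc3 stayed within a narrow range. Drc7 (ENSMUSG00000031786.7, GRCm38 chr8:95055103-95078141, plus strand) had 3.52, 8.33 and 10.2 CPM in fish oil injured, against 1.75, 1.34 and 1.11 CPM in fish oil sham mice, and 1.16, 0.626 and 1.93 CPM in purified injured, against 1.41, 1.66 and 0.843 CPM in purified sham mice. Every fish oil injured library was above all 9 other libraries, with a mean of 7.36 ± 3.45 CPM in fish oil injured, against 1.4 ± 0.324 CPM in fish oil sham, 1.24 ± 0.657 CPM in purified injured and 1.3 ± 0.42 CPM in purified sham mice (SD, n = 3 each). The order of fish oil injured replicates 2, 3 and 4 in Drc7 was close to that in choroid plexus genes, where replicate 2 was also the lowest of the 3. Ttr, the most abundant choroid plexus transcript, had 183, 2333 and 2123 CPM in fish oil injured, against 21, 50.3 and 20.9 CPM in fish oil sham mice, and 14.3, 10.4 and 23.5 CPM in purified injured, against 17.5, 430 and 17.6 CPM in purified sham mice. Purified sham replicate 3, with 430 CPM of Ttr, had 1.66 CPM of Drc7, the highest value of its group. Fish oil sham replicate 2, with 21 CPM of Ttr, had more Drc7 (1.75 CPM). So did purified injured replicate 4, with 23.5 CPM of Ttr and 1.93 CPM of Drc7. Purified sham replicate 3 was near the low end for Ccdc153, Ak7 and Tmem212, while purified sham replicate 2, the highest library for those genes, had 17.5 CPM of Ttr. Fish oil injured replicate 3 combined the highest Ttr with 0 CPM of Tmem212, 0.322 CPM of Dnah12 and 0.271 CPM of Dnah10. It was not low throughout, and 7 of the 57 genes were highest in it. Summed over the 7 genes named in the rule, it had 9.38 CPM, and fish oil injured replicate 4 had 11.5 CPM. The part of choroid plexus tissue in the level of Drc7 was not tested.

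**Figure D3:**
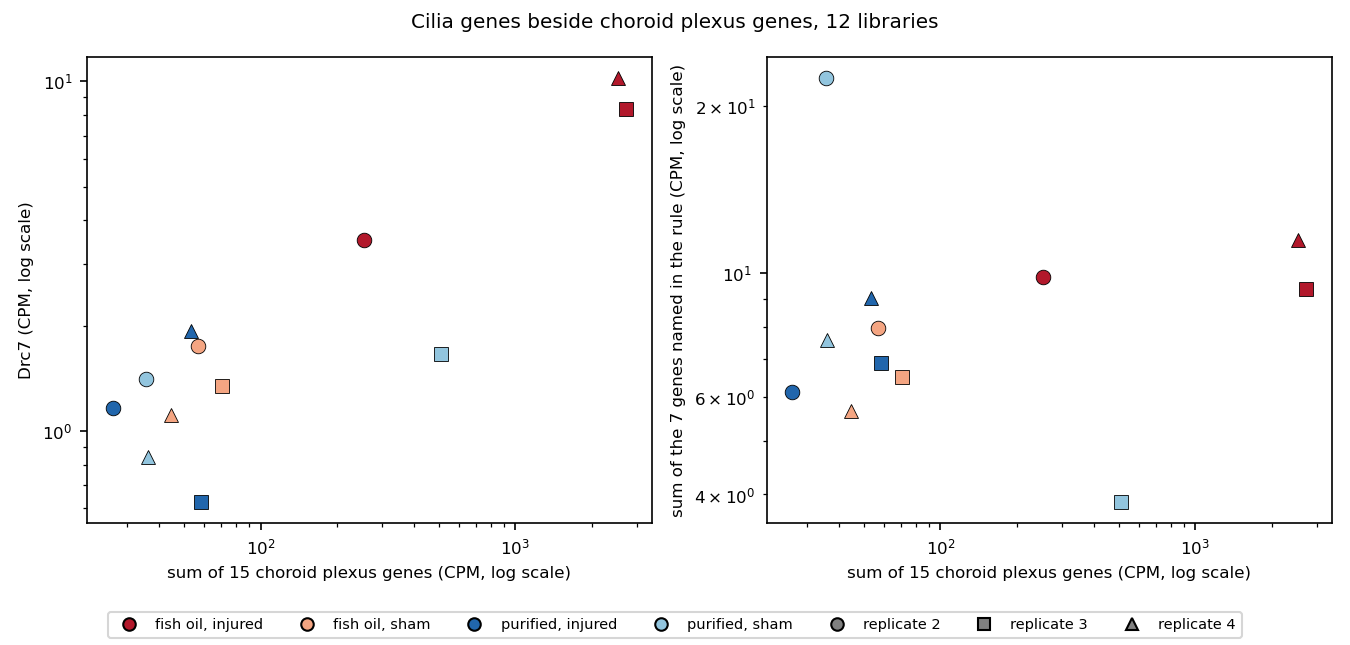
Drc7 (left) and the sum of the 7 genes named in the rule (right) against the sum of 15 choroid plexus genes in each of the 12 libraries, all in CPM on log axes, with colour for the group and symbol for the replicate number. Fish oil injured replicates 3 and 4 are highest for choroid plexus genes and Drc7, and purified sham replicate 2 is highest for the 7 genes with 35.5 CPM of choroid plexus genes.

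Radial spoke proteins and tektins differed among themselves in how far their libraries spread, from 1.62-fold for Rsph3a to 6.81-fold for Rsph4a. Rsph9, a spoke head protein, had 7.98, 13.7 and 5.99 CPM in fish oil injured, against 7.93, 6.12 and 9.43 CPM in fish oil sham mice, and 9.04, 6.71 and 11.1 CPM in purified injured, against 7.22, 7.48 and 6.55 CPM in purified sham mice. Rsph10b had 4.62, 5.27 and 6.92 CPM in fish oil injured, against 3.99, 5.96 and 6.93 CPM in fish oil sham mice, and 8.14, 8.39 and 6.46 CPM in purified injured, against 11, 9.52 and 8.79 CPM in purified sham mice, and shares exon sequence with Pms2 on the same strand. The purified sham libraries of Rsph10b lay above all purified injured and all fish oil sham libraries. Tekt5 had 7.53, 5.06 and 3.02 CPM in fish oil injured, against 10.3, 9.07 and 5.76 CPM in fish oil sham mice, and 6.08, 3.8 and 4.57 CPM in purified injured, against 9.12, 4.97 and 5.72 CPM in purified sham mice. Tekt1 had 1.86, 3.13 and 2.19 CPM in fish oil injured, against 1.29, 1.81 and 1.4 CPM in fish oil sham mice, and 0.84, 1.32 and 1.67 CPM in purified injured, against 2.54, 0.969 and 1.0 CPM in purified sham mice. Tekt1 was higher in every fish oil injured library than in the fish oil sham and purified injured libraries, and Tekt5 overlapped throughout. Tekt2 had 0.823, 0.322 and 0.398 CPM in fish oil injured, against 0.614, 0.509 and 0.602 CPM in fish oil sham mice, and 1.06, 1.27 and 1.11 CPM in purified injured, against 1.05, 0.611 and 1.27 CPM in purified sham mice, with every fish oil injured library below every purified injured one.

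The Cfap genes held the most even and some of the most uneven levels. Cfap36, a partner of the ciliary GTPase Arl3, had 78.2, 70.8 and 74.8 CPM in fish oil injured, against 74.5, 70.7 and 73.3 CPM in fish oil sham mice, and 61.2, 78.3 and 77.3 CPM in purified injured, against 71.7, 66.2 and 73.2 CPM in purified sham mice. Cfap97 had 50.7, 42.4 and 46.2 CPM in fish oil injured, against 46.2, 41.4 and 41.3 CPM in fish oil sham mice, and 43, 46.2 and 44.8 CPM in purified injured, against 45.1, 45.5 and 42 CPM in purified sham mice. In both, all libraries stayed within 1.28-fold of each other for Cfap36 and 1.23-fold for Cfap97. Cfap20, a protein at the inner junction of the doublet, had 30.6, 25.6 and 24.2 CPM in fish oil injured, against 31.8, 32.2 and 29.7 CPM in fish oil sham mice, and 32.7, 43.9 and 33.4 CPM in purified injured, against 37.4, 33.6 and 33.5 CPM in purified sham mice. The fish oil injured libraries of Cfap20 were all below the purified injured ones, and the fish oil sham libraries all below the purified sham ones. Cfap61, a protein of the complex at the base of the radial spokes, had 3.22, 4.66 and 3.84 CPM in fish oil injured, against 2.84, 2.29 and 3.7 CPM in fish oil sham mice, and 3.68, 4.49 and 3.82 CPM in purified injured, against 3.06, 2.95 and 2.39 CPM in purified sham mice, with every purified injured library above every purified sham library. Cfap52, a protein inside the doublet (ENSMUSG00000020904.11, GRCm38 chr11:67924806-67965651, minus strand), had 2.47, 8.57 and 2.97 CPM in fish oil injured, against 0.557, 0.396 and 7.94 CPM in fish oil sham mice, and 0.64, 0.302 and 6.36 CPM in purified injured, against 2.53, 0.653 and 0.717 CPM in purified sham mice. Rsph4a, a spoke head protein, had 8.37, 9.53 and 4.74 CPM in fish oil injured, against 6.99, 2.26 and 8.06 CPM in fish oil sham mice, and 3.46, 2.31 and 10.5 CPM in purified injured, against 5.02, 2.4 and 1.54 CPM in purified sham mice. Cfap58 had 0.68, 1.1 and 0.199 CPM in fish oil injured, against 0.154, 0.254 and 1.94 CPM in fish oil sham mice, and 0.32, 0.431 and 1.71 CPM in purified injured, against 0.134, 0.169 and 0.161 CPM in purified sham mice. These 3 genes were among their highest in fish oil injured replicate 3, fish oil sham replicate 4 and purified injured replicate 4, 1 library of each of 3 groups. The same 3 libraries had the highest sums over 11 meningeal fibroblast genes, with 227, 199 and 250 CPM, against 58.3 to 113 CPM in the other 9. They also had the highest levels of the transcription factor Rfx3, with 147, 115 and 173 CPM, against 53.3 to 99.3 CPM. None of the 11 fibroblast genes was at 0 in all libraries, and their part in the levels of Cfap52, Rsph4a and Cfap58 was not tested.

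**Figure D4:**
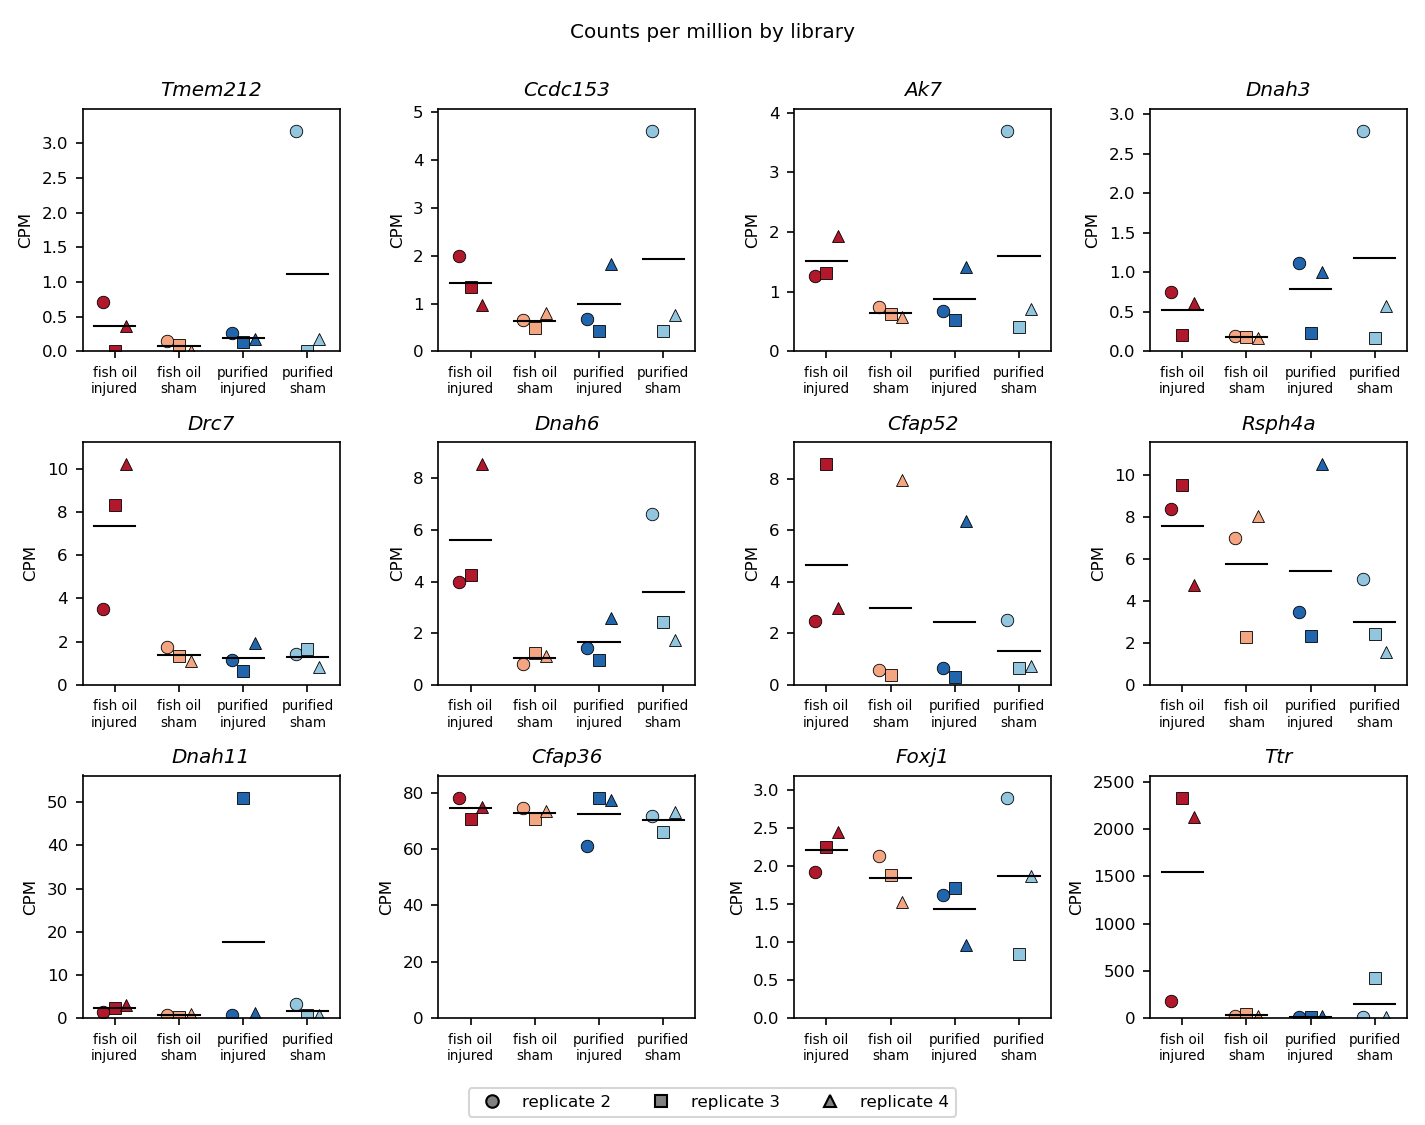
Level in CPM of 11 cilia genes and of the choroid plexus transcript Ttr in each library, by group, with symbols for replicates 2, 3 and 4 and a line at the mean of each group (n = 3). Drc7 is 3.52 to 10.2 CPM in fish oil injured libraries, Ccdc153 and Ak7 peak in purified sham replicate 2, and Dnah11 in purified injured replicate 3.

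The first comparison asked what injury did within the fish oil diet. Log2 fold changes are given as the estimate ± its SE, and a gene is said to be at that value. Of the 57 genes, Drc7 and Dnah6 had the smallest p-values, both higher in injured mice. No gene passed the test, and the lowest adjusted p over all genes was 0.236 in edgeR. The log2 fold change of injured over sham was 2.47 ± 0.49 for Drc7, with an adjusted p of 0.835 in edgeR, and 2.49 ± 0.56 for Dnah6, with an adjusted p of 0.94. With DESeq2 both passed, with adjusted p-values of 0.000383 for Drc7 and 0.00266 for Dnah6. In edgeR, 0 of 57 cilia genes and 0% of 19252 genes were called at an adjusted p under 0.05. DESeq2 called 2 of the 57 and 37 of 19173 genes, while limma-voom called none of the 57 and 1 gene in all. At an unadjusted p under 0.05, edgeR gave 4 of the 57 (7.02%), all higher in injured mice, against 3.48% of all genes. The other members of these 4 were Cfap43, which forms part of a tether near the inner arms, at 1.5 ± 0.58, and Cfap126, which helps to place basal bodies, at 1.20 ± 0.49. Pifo, below the minimum, had 2.54 ± 0.90 (adjusted p = 0.999, edgeR). Of the 57, 41 had a log2 fold change above 0 (71.9%), against 49% of all genes, and the median was 0.20, against -0.01 over all genes and 0.11 without fish oil sham replicate 3. In 11 genes (19.3%) every injured library was above every sham library, against 2.32% of all genes: Ak7, Ccdc153, Cfap43, Cfap126, Cfap161, Dnah3, Dnah6, Dnah11, Dnah14, Drc7 and Tekt1. Only Drc1 was the other way round (1.75%), against 7.63% of all genes. By role, the median was 1.03 over Rarres2, Ccdc153, Ak7 and Dynlrb2, 0.42 over the 4 outer arm heavy chains, 0.36 over the 10 inner arm heavy chains, 0.18 over the 6 radial spoke genes, 0.18 over the 24 Cfap genes and -0.10 over the 3 tektins. In the same comparison all 15 choroid plexus genes had a log2 fold change above 0, with a median of 4.59. All 15 had an unadjusted p under 0.05 and none passed the adjusted threshold, and F5 at 4.94 ± 0.93 and Folr1 at 5.04 ± 1.06 had the smallest p-values of the list.

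Within the purified diet the genes had no common direction. Of the 57, 29 had a log2 fold change above 0 (50.9%), against 50.6% of all genes, with a median of 0.00, as over all genes. Ccdc153 was at -0.99 ± 0.79 and Ak7 at -0.90 ± 0.68, and without purified sham replicate 2 they were at 0.71 and 0.61, the median of the 57 genes was 0.25 and 44 of them were above 0. By edgeR, 0 of 57 cilia genes and 0% of all genes were called, and 4 of the 57 (7.02%) had an unadjusted p under 0.05, against 6.5% of all genes. DESeq2 called none of the 57 and 14 genes in all, and limma-voom called none. The 4 were Dnah7c at 0.84 ± 0.30, Dnah11 at 3.38 ± 1.34, Dnah8 at 1.23 ± 0.53 and Cfap58 at 2.38 ± 1.03, with adjusted p-values of 0.763 in edgeR. Dnah11 was at -0.68 without purified injured replicate 3, the library with olfactory bulb transcripts, and Dnah8 was at 0.55. Cfap58 was at 1.23 without purified injured replicate 4, and the median of the 57 was then -0.11. In 4 genes (7.02%), Cfap58, Cfap61, Dnah7c and Dnah8, every injured library was above every sham library, against 6.03% of all genes, and in Rsph10b it was below (1.75%), against 5.4% of all genes. Rarres2, Ccdc153, Ak7 and Dynlrb2 had a median of -0.67, the outer arm heavy chains of 0.45 and the Cfap genes of 0.02. Choroid plexus genes were above 0 in 1 of 15, with a median of -1.49, and purified sham replicate 3 held most of their counts in these groups.

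**Figure D5:**
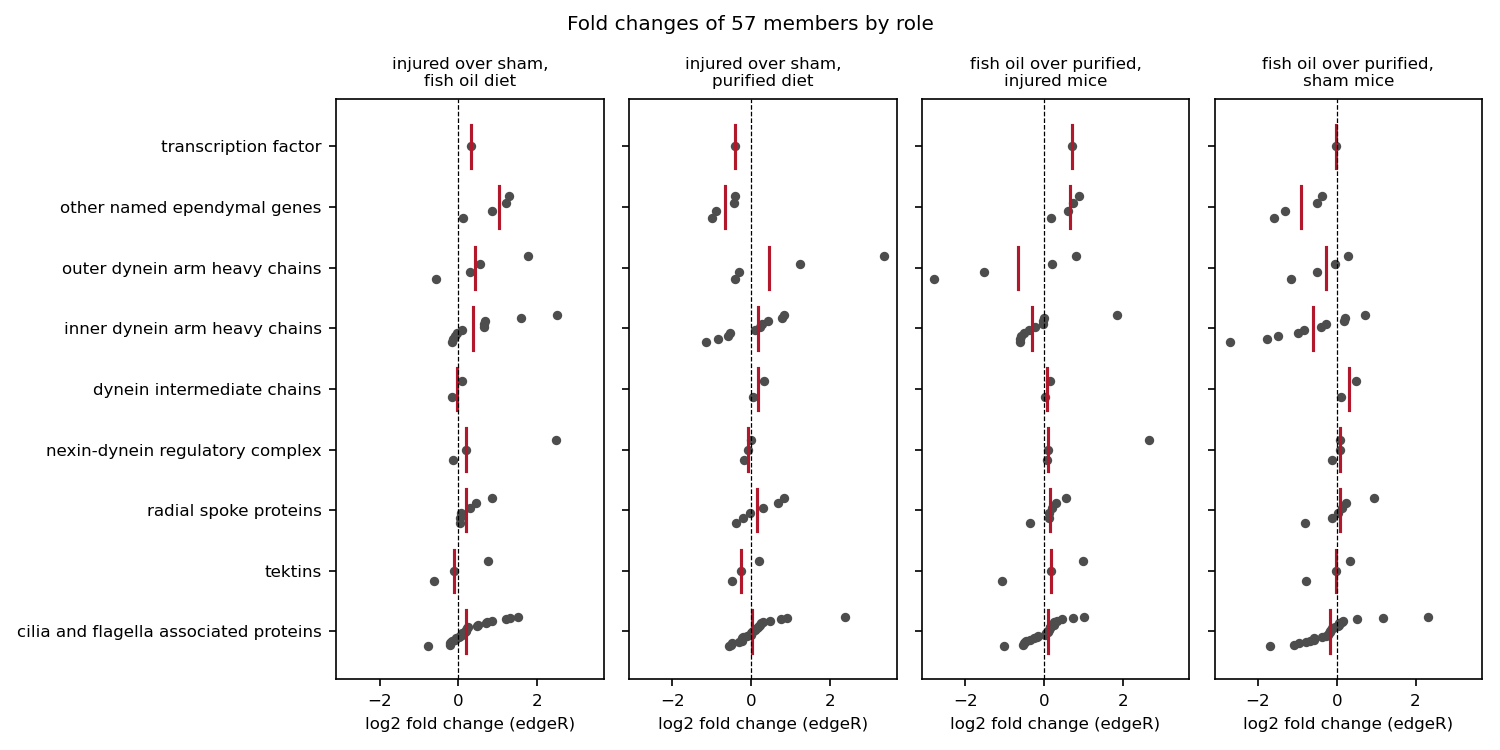
edgeR log2 fold changes of the 57 genes by role in 4 comparisons, injured over sham within each diet and fish oil over purified within injured and sham mice, with a point for each gene and a red line at the median of each role (n = 3 libraries a group). The row of other named ependymal genes holds Rarres2, Ccdc153, Ak7 and Dynlrb2, with medians of 1.03 for injury with fish oil and -0.67 for injury with the purified diet, against -0.06 and 0.45 for 5 ependymal genes outside cilia, which are not plotted. Without purified sham replicate 2, Ccdc153, Ak7 and Dynlrb2 were at 0.71, 0.61 and 0.064 for injury with the purified diet.

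Among injured mice, fish oil against the purified diet gave the second comparison in which Drc7 and Dnah6 had the smallest p-values of the 57. It shares the fish oil injured libraries with the comparison of injury within fish oil. On the log2 scale, fish oil over purified, Drc7 was at 2.66 ± 0.49 (adjusted p = 0.362, edgeR) and Dnah6 at 1.84 ± 0.54 (adjusted p = 0.378, edgeR). Both passed in DESeq2, with adjusted p-values of 9.91e-05 for Drc7 and 0.0483 for Dnah6. Drc7 also passed in edgeR without purified injured replicate 4, at 3.13 with an adjusted p of 0.0466. It was then 1 of 83 genes called among 19820. With all libraries, the edgeR test called 0 of 57 and 0% of all genes, DESeq2 called 2 of the 57 and 186 of 18799 genes, and limma-voom called none. At an unadjusted p under 0.05 there were 8 of the 57 (14%), against 10.7% of all genes. Higher with fish oil were also Tekt1 at 1.00 ± 0.41 and Cfap298, a dynein assembly factor, at 0.33 ± 0.15. Lower with fish oil were Dnah8 at -1.52 ± 0.53, Tekt2 at -1.07 ± 0.39, Cfap69, a protein of olfactory cilia and sperm, at -0.51 ± 0.19, and Cfap20 at -0.36 ± 0.12. Without purified injured replicate 3, Dnah8 was at -0.84, Cfap69 at -0.26 and Cfap298 at 0.21. Of the 57, 35 had a log2 fold change above 0 (61.4%), against 50.8% of all genes, with a median of 0.11, against 0.01 over all genes. The median was -0.03 without purified injured replicate 3 and -0.02 without fish oil injured replicate 3. Every fish oil library was above every purified library in 5 genes (8.77%), Cfap43, Dnah6, Drc7, Foxj1 and Tekt1, against 2.53% of all genes. Every fish oil library was below every purified library in 4 (7.02%), Cfap20, Cfap69, Dnah8 and Tekt2, against 9.02% of all genes. All 15 choroid plexus genes were above 0, with a median of 4.49.

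Among sham mice, fish oil against the purified diet gave mostly lower values. Of the 57, 21 had a log2 fold change above 0 (36.8%), against 51.1% of all genes, with a median of -0.14, against 0.01 over all genes, and the median was 0.03 without purified sham replicate 2 and -0.23 without purified sham replicate 4. With edgeR, 0 of 57 and 0% of all genes were called, DESeq2 called none of the 57 and 17 genes in all, and limma-voom called none. At an unadjusted p under 0.05 there were 7 of the 57 (12.3%), against 3.69% of all genes. Lower with fish oil were Rsph10b at -0.80 ± 0.23, Dnah6 at -1.78 ± 0.54, Dnah3 at -2.70 ± 0.93, Dnah14, an inner arm heavy chain, at -0.82 ± 0.32 and Cfap161 at -1.68 ± 0.74, each with an adjusted p of 0.934 in edgeR. Higher were Dnah7c at 0.71 ± 0.30 and Cfap58 at 2.32 ± 1.02. Without purified sham replicate 2, Dnah6 was at -1.0, Dnah3 at -1.06 and Cfap161 at -0.09, and without fish oil sham replicate 4, Cfap58 was at 0.41. Ccdc153 at -1.59 ± 0.80 and Ak7 at -1.31 ± 0.69 were at 0.11 and 0.19 without purified sham replicate 2. Every fish oil library was below every purified library in 5 genes (8.77%), Cfap20, Cfap74, Dnah6, Dnah14 and Rsph10b, against 7.2% of all genes, and above in Rsph3b (1.75%), against 6.41% of all genes.

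Averaged over diets, injury gave 39 of 57 log2 fold changes above 0 (68.4%), against 50.3% of all genes, with a median of 0.11. That median was 0.06 without fish oil sham replicate 3, 0.17 without fish oil sham replicate 2 and 0.22 without purified sham replicate 2. In edgeR, 0 of 57 and 0% of all genes were called, with 5 of the 57 (8.77%) at an unadjusted p under 0.05, against 3.6% of all genes. DESeq2 called none of the 57 and 3 genes in all, and limma-voom none of the 57 and 2 in all. Drc7 was at 1.19 ± 0.34, Cfap61 at 0.48 ± 0.16 and Dnah11 at 2.57 ± 0.93, each with an adjusted p of 0.991 in edgeR, and Dnah11 was at 0.54 without purified injured replicate 3. Averaged over injury states, fish oil against the purified diet gave 26 of 57 log2 fold changes above 0 (45.6%), against 52.5% of all genes, with a median of -0.05. The median was above 0 without purified sham replicate 2 (0.09, with 35 genes above 0) or purified injured replicate 4 (0.05), and ran down to -0.14 without fish oil sham replicate 4. In edgeR, 0 of 57 and 0% of all genes were called, with 9 of the 57 (15.8%) at an unadjusted p under 0.05, against 8.85% of all genes. DESeq2 called Drc7 (adjusted p = 0.0223) among 99 genes, and limma-voom called none. Drc7 was at 1.37 ± 0.34, Rsph10b at -0.58 ± 0.16 and Tekt2 at -0.92 ± 0.28, with adjusted p-values of 0.451, 0.451 and 0.453 in edgeR. The other 6 of the 9, Cfap20, Dnah14, Cfap69, Dnah3, Cfap298 and Cfap100, lay between -1.61 for Dnah3 and 0.25 for Cfap298.

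The interaction asked whether injury acted differently under the 2 diets. Dnah6 had the smallest p of the 57, at a log2 difference of fold changes of 3.63 ± 0.77 (adjusted p = 0.82, edgeR), and Drc7 was at 2.56 ± 0.67 (adjusted p = 0.82). Dnah6 passed in DESeq2, with an adjusted p of 0.00293, among 21 genes. In edgeR, 0 of 57 and 0% of all genes were called, limma-voom called none, and 6 of the 57 (10.5%) had an unadjusted p under 0.05, against 5.76% of all genes. Positive, with injury higher under fish oil than under the purified diet, were also Ak7 at 2.19 ± 0.97 and Cfap43 at 1.81 ± 0.81, and negative were Dnah8 at -1.80 ± 0.74 and Dnah7c at -0.93 ± 0.42. Without purified sham replicate 2, Ak7 was at 0.69, Cfap43 at 0.76 and Dnah6 at 2.84. Dnah8 was at -1.13 without purified injured replicate 3. On that scale 39 of the 57 were above 0 (68.4%), against 47.6% of all genes, with a median of 0.19, against -0.02 over all genes. The median was 0.06 without purified sham replicate 2, 0.08 without purified injured replicate 3 and 0.32 without purified injured replicate 4.

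Genes outside the naming rule gave a setting for these values. Of 58 other genes of motile cilia, 54 were tested. For injury within fish oil, 38 had a log2 fold change above 0, against 49% of all genes, with a median of 0.25. In edgeR 7 had an unadjusted p under 0.05, all higher, against 3.48% of all genes. Spef2, a protein of the central apparatus, was at 1.38 ± 0.32, with 3.06, 2.74 and 3.49 CPM in fish oil injured, against 1.36, 1.0 and 1.38 CPM in fish oil sham mice, and 1.4, 1.96 and 1.67 CPM in purified injured, against 2.93, 1.18 and 1.6 CPM in purified sham mice. Wdr63, an inner arm intermediate chain, was at 4.43 ± 1.09, with 0.555, 1.15 and 1.7 CPM in fish oil injured, against 0.0384, 0.0848 and 0.0326 CPM in fish oil sham mice, and 0.16, 0 and 0.423 CPM in purified injured, against 1.09, 0.421 and 0.179 CPM in purified sham mice. Every fish oil injured library was above every fish oil sham library in both genes, and purified sham replicate 2 was again the highest of its group. For injury within the purified diet the list had 29 of 54 above 0, against 50.6% of all genes, and a median of 0.02. Iqub at 0.69 ± 0.34 and Spag1 at -0.32 ± 0.16 had its smallest p-values. Fish oil against the purified diet gave 33 of 54 above 0 in injured mice, against 50.8% of all genes, and a median of 0.09. Spef2 was there at 0.98 ± 0.32 and Spag16 at 1.59 ± 0.57. In sham mice the diet gave 17 of 54 above 0, against 51.1% of all genes, and a median of -0.15, with Wdr63 at -3.36 ± 1.07 and Iqca at -1.85 ± 0.91. Intraflagellar transport genes, which serve primary cilia too, were even. For injury, 8 of 19 were above 0 within fish oil and 6 of 19 within the purified diet, against 49% and 50.6% of all genes. The medians were -0.01 and -0.06, with none at an unadjusted p under 0.05 in either. Their smallest p-values belonged to Ift74 at 0.22 ± 0.13 and Wdr35 at 0.12 ± 0.10 within fish oil, and to Ift140 at 0.16 ± 0.13 and Ift27 at -0.22 ± 0.18 within the purified diet. Over the 19 genes the summed level was 579 to 598 CPM in fish oil injured, 588 to 638 CPM in fish oil sham, 606 to 641 CPM in purified injured and 590 to 659 CPM in purified sham mice.

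Ependymal genes outside cilia, some of which astrocytes and other cells also express, had medians of the other sign from those of the 4 named genes Rarres2, Ccdc153, Ak7 and Dynlrb2 for injury within each diet and for the interaction. The difference between the lists was not tested. Of 6 on the list, the 5 tested were Cd24a, a surface protein, Tm4sf1, S100a6, and the intermediate filament genes Vim and Gfap. For injury within fish oil, 2 of the 5 had a log2 fold change above 0, with a median of -0.06, where the 4 named genes had 1.03. For injury within the purified diet, 4 of the 5 were above 0, with a median of 0.45, where the 4 named genes had -0.67. Without purified sham replicate 2, Ccdc153 was at 0.71, Ak7 at 0.61 and Dynlrb2 at 0.064, so their sign there depended on that library. In the interaction 1 of the 5 was above 0, with a median of -0.51, against 4 of the 4 named genes, with a median of 1.72. Ak7 fell there from 2.19 to 0.69 without purified sham replicate 2. None of the 5 passed the adjusted threshold in any comparison. Cd24a had the smallest p-value of the list for injury within the purified diet, at 1.52 ± 0.60 (adjusted p = 0.763, edgeR), with 4.16, 28.2 and 6.32 CPM in purified injured, against 6.33, 3.16 and 3.46 CPM in purified sham mice. Its high library was purified injured replicate 3, which carried the olfactory bulb transcripts, and Vim was also highest there, with 36.6 CPM, against 10.6 to 22.5 CPM elsewhere.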

How the data were processed

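RNA of 12 brain libraries was sequenced in pairs after stranded library preparation, per the labels' protocols. Alignment and counting used STAR (2.5.2a) with featureCounts (1.4.3-p1) on mm10, per the submitters' processing notes. The authors deposited raw counts per gene. Values of 2 outnumbered values of 1 (20514 against 11222), so both mates of a pair may have been counted. Whether strand was used in counting, and how reads with several positions were treated, is not given in the sources used here. Overlapping genes and paralogues such as Dnah7a, Dnah7b and Dnah7c may therefore share counts. In 24 of the 57 genes, exons overlap those of another gene. Examples on the opposite strand are Cfap61 with Crnkl1, Dnah3 with Lyrm1, Dnah14 with Lbr and Cfap97 with Snx25.

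Identifiers were matched to GENCODE M21, and positions are given only where the version matched (49 of the 57 genes). Genes were kept with filterByExpr at a minimum count of 10, which left 19252. A quasi-likelihood model (edgeR 4.0.16 in R 4.3.3, robust, TMM factors of 0.941 to 1.06) was fitted with a mean for each of the 4 groups, with Benjamini-Hochberg adjustment over all genes and a threshold of 0.05. Standard errors came from the F statistic. The biological coefficient of variation was 0.289. Each pair of replicates had a chi-square per gene of at least 36.1, so no library was counted double. The procedure was tested on simulated data. The alternatives were DESeq2 1.42.0, limma-voom (limma 3.58.1), RLE and upper-quartile factors, other filters, halved counts, a threshold of 0.10, fits to the groups in question alone, a block for the replicate number, and fits without single libraries or without the pair of libraries highest for olfactory bulb and striatal genes.

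The cilia genes and all gene lists were chosen with earlier results of these data known, so no list was tested. Library values are given for the genes named in the rule, the pair with the highest mean in each role and the 3 smallest p-values in each comparison, and further genes were named after their values had been seen. Promoter sequences come from RefSeq (GRCm38.p6), and 48 of the 54 window ends were found in a transcript of their own gene. Protein sequences were not used here.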

Additional observations from a re-analysis of the deposited data

Results flagged for a closer look

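Dnah6, an inner arm dynein heavy chain, was flagged because its values were higher with fish oil in injured mice and lower in sham mice, without overlap of libraries. That lack of overlap was the rule of choice and not a further result. Among injured mice, every fish oil library was above every purified library in 2.53% of all genes. Among sham mice, every fish oil library was below every purified library in 7.2% of all genes. In injured mice Dnah6 had 3.97, 4.27 and 8.55 CPM with fish oil, against 1.44, 0.949 and 2.58 CPM with the purified diet. In sham mice it had 0.806, 1.22 and 1.11 CPM with fish oil, against 6.63, 2.42 and 1.72 CPM with the purified diet. The difference between the 2 diet effects was 3.63 ± 0.77 on the log2 scale (SE), with an unadjusted p of 0.000571 and an adjusted p of 0.82 in edgeR, and an adjusted p of 0.00293 in DESeq2. It was 2.84 to 4.09 when each library was left out in turn.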

How the results depend on the processing

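Only DESeq2 and 1 left-out library changed a count of called cilia genes. DESeq2 called 2 of the 57 (Drc7 and Dnah6) for injury within fish oil and 2 (the same genes) for fish oil among injured mice, 1 (Drc7) for diet averaged over injury states and 1 (Dnah6) for the interaction, where edgeR called 0 in each. Its log2 values, 2.47 for Drc7 and 2.49 for Dnah6 within fish oil and 2.65 and 1.84 among injured mice, were those of edgeR to within 0.01, and the cause of the difference in calls was not tested. Over the libraries left out in turn, 0 to 1 of the 57 were called for fish oil among injured mice, the 1 being Drc7 without purified injured replicate 4, and 0 in the other 6 comparisons. Without that library, edgeR called 83 of 19820 genes for fish oil among injured mice.

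Without single libraries, the median of the 57 genes for injury within the purified diet ran from -0.11 (without purified injured replicate 4) to 0.25 (without purified sham replicate 2), and 22 to 44 genes were above 0. For injury within fish oil the median ran from 0.11 to 0.23, among injured mice from -0.03 to 0.15, and among sham mice from -0.23 to 0.03. It ran from 0.06 to 0.22 for injury averaged over diets, from -0.14 to 0.09 for diet averaged over injury states and from 0.06 to 0.32 for the interaction. Some named genes changed sign. Dnah11 for injury within the purified diet was at -0.68 without the pair of libraries highest for olfactory bulb and striatal genes and ran from -0.68 to 4.46 over the libraries left out. In the same comparison Ccdc153 ran from -1.82 to 0.71, Ak7 from -1.45 to 0.61 and Dynlrb2 from -0.75 to 0.064. Among sham mice, Ccdc153 ran from -2.04 to 0.11 and Ak7 from -1.75 to 0.19. The upper ends of these genes are those without purified sham replicate 2, and the lower end of Dnah11 is without purified injured replicate 3.

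The counts of genes above 0 were chosen as a result after seeing the data. Replicate numbers did not pair the libraries: same-numbered libraries of different groups had correlations of -0.37 to 0.28 between their deviations (n = 18 pairs), against -0.34 to 0.38 for different numbers (n = 36). With the replicate number as a block, 0 of the 57 were called in each of the 7 comparisons, the median was 0.18 for injury within fish oil and -0.15 for fish oil among sham mice, and 43 and 20 genes were above 0. Genes near 0.5 CPM have few counts per library, so small differences in them are not detectable at this depth.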

Other observations

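Most regulators of multiciliated cells were low, apart from Rfx3. Of 11 such genes, Foxj1 included, 9 were tested, and none passed edgeR's adjusted threshold in any comparison. Trp73, a transcription factor upstream of Foxj1, had 0.877, 1.8 and 1.45 CPM in fish oil injured mice, against 0.883, 0.254 and 0.293 CPM in fish oil sham mice, and 0.5, 2.72 and 0.886 CPM in purified injured mice, against 0.234, 0.316 and 0.52 CPM in purified sham mice. Its log2 fold change for injury averaged over diets was 1.74 ± 0.47 (SE), with an adjusted p of 0.991 in edgeR, and its highest library was the one with olfactory bulb transcripts. Mcidas, which starts the multiciliated programme, was at most 0.396 CPM in any library and Foxn4 was at 0 in 11 of them.

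A list of 11 genes was chosen for neuronal primary cilia, which do not beat. Some of them, such as Bbs2 and Ttc8, may serve other cilia too. Their summed level was 307 to 324 CPM in fish oil injured, 332 to 363 CPM in fish oil sham, 357 to 369 CPM in purified injured and 323 to 356 CPM in purified sham mice. The fish oil injured sums lay below all fish oil sham and all purified injured sums, which was not tested. For fish oil among injured mice, 4 of the 11 had a log2 fold change above 0, against 50.8% of all genes. The smallest p-values there belonged to Bbs2 at -0.49 ± 0.16 and Ttc8 at -0.40 ± 0.17, and neither passed edgeR's adjusted threshold. Cytoplasmic dynein, the transport motor of all cells, summed over 10 genes to 2690 to 2814 CPM in fish oil injured, 2707 to 2774 CPM in fish oil sham, 2520 to 2819 CPM in purified injured and 2640 to 2897 CPM in purified sham mice. Genes of male germ cells, which also use axonemal dyneins, were absent or nearly so apart from Ddx4: Prm2, Tnp1 and Tnp2 had 0 counts in every library, and Prm1 was above 0 in 1 library.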
